A study of Mus musculus with 7 samples.

Results

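The mitosis and spindle genes are 43 listed genes for mitotic cyclins, kinases, kinesins, kinetochore proteins and cytokinesis proteins, of which 40 were measured among 12393 genes in all. Each gene was read from the probe set with the highest mean over all 7 arrays among those that name it alone, and Ccnb1, Espl1 and Cdca8, for which no such probe set was found, were left out. The RNA came from CD11c-positive cells taken by magnetic sorting from the spleens of mice collected 7 days after an allogeneic stem cell transplant, that is, blood-forming cells from a genetically different donor. A group of 4 arrays was labelled wild type (C57BL/6J) and a group of 3 was labelled Atg16L1 hypomorphic (C57BL/6J). A hypomorph keeps part of a gene's function, and Atg16l1 encodes a protein that helps attach LC3 to forming autophagosomes. Both groups were transplanted, with no untransplanted control among them. The ages given are 9 weeks at collection in the sample protocol and 8 weeks in the description of the experiment. The sources used here do not say if recipients, donors or both carried the labelled genotype, nor how the hypomorphic allele was made. The labels also leave unsaid whether 1 animal or a pool stands behind an array, and the p-values cover the spread among these 7 samples, which may be technical. Atg16l1 itself read 7.42, 7.33, 7.26 and 7.20 in the wild-type arrays and 6.86, 6.76 and 6.94 in the hypomorph arrays, without overlap, a log2 change of -0.45 (95% confidence interval -0.63 to -0.26; limma adjusted p = 0.462). Whether its probe set lies in the altered part of the gene is not known here.

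Cells that divide build a new set of mitotic proteins in each cycle and destroy most of them as mitosis ends, and their mRNAs follow the same rhythm. Cyclin-bound Cdk1 drives entry into mitosis, Aurora and Polo-like kinases build the spindle, kinetochores tie chromosomes to microtubules, and a checkpoint holds back the anaphase-promoting complex (APC/C) until all chromosomes are attached. Mature dendritic cells, the antigen-presenting cells that CD11c is commonly used to isolate, divide little in the spleen, whereas their precursors and the erythroid and myeloid precursors of a spleen being repopulated after a transplant divide often.

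All 40 measured genes had a lower mean in the hypomorph, and none of them passed the test over all probe sets. The median log2 change was -0.33, or 1.25-fold lower, against -0.0024 over all genes, and the changes ran from -0.47 for Nuf2 to -0.03 for Cenpe. Over all genes, 50.8% had a negative change. In the limma fit over 22625 probe sets, with Benjamini-Hochberg adjustment and a threshold of 0.05, the adjusted p of the 40 genes ran from 0.644 to 0.981. Among all genes 0 of 12393 passed (0.0%). At an unadjusted limma p under 0.05 there were 14 of the 40 lower and 0 higher, where the same rule met 3.59% of all genes in the lower and 3.57% in the higher direction. In 6 of the 40 every hypomorph array lay below every wild-type array, which held for 2.72% of all genes, and this count rises by construction when an array is left out. Without wild-type replicate 4 it was 12 (4.31% of all genes) and without hypomorph replicate 2 it was 32 (11.8% of all genes). The standard error of a change lay between 0.0747 and 0.249.

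**Figure D1:**
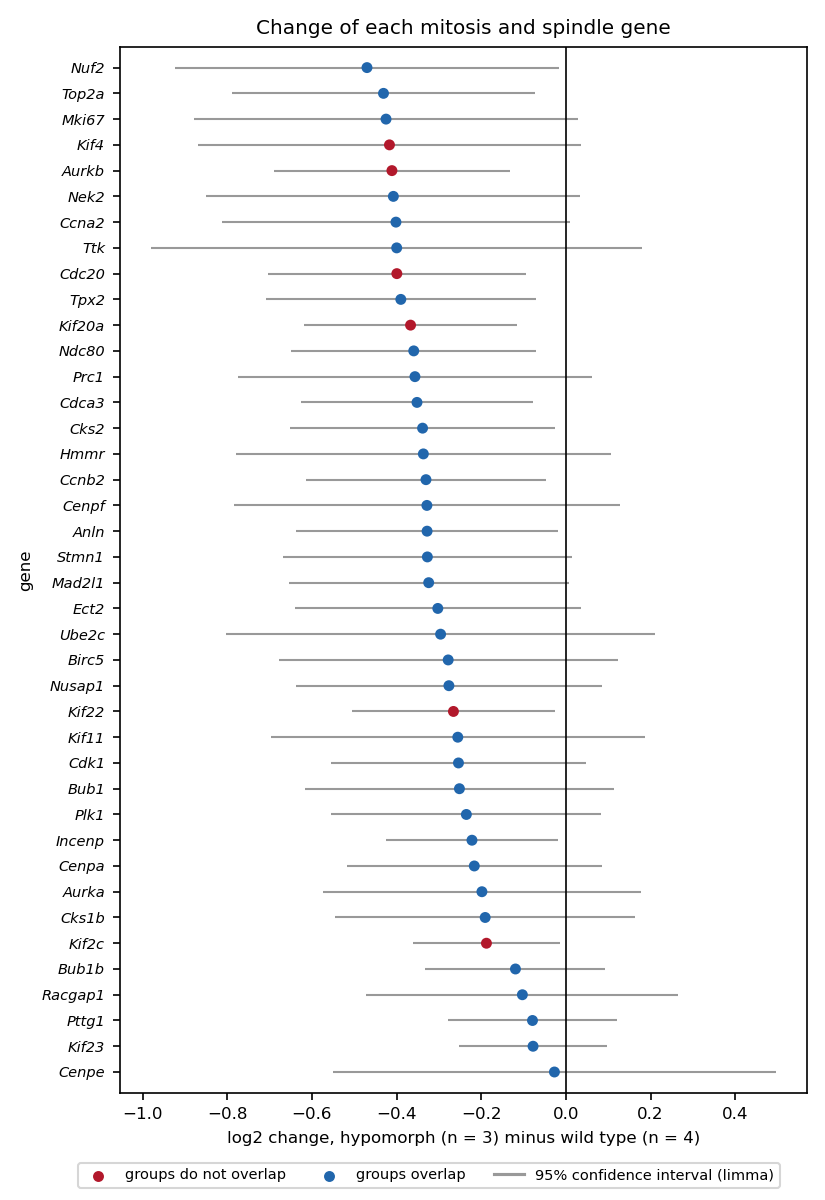
Log2 change of the 40 genes (hypomorph minus wild type, 3 and 4 arrays), with points for the change and bars for the 95% confidence interval of the limma fit. Every point lies left of 0, the intervals of 14 genes do not reach 0, and the 6 genes in red are those whose groups do not overlap.

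The difference did not lie in every hypomorph array. Relative to the wild-type mean, the median of the 40 genes was 0.07, 0.02, -0.05 and -0.05 in wild-type replicates 1 to 4 and -0.27, 0.01 and -0.62 in hypomorph replicates 1 to 3. Hypomorph replicate 3 was the lowest of the 7 arrays for 40 of the 40 genes (18.5% of all genes) and so below all wild-type arrays for 40 (24.4% of all genes). Hypomorph replicate 1 was below all wild-type arrays for 32 (24.2% of all genes). Hypomorph replicate 2 lay below all wild-type arrays for 7 genes (20.2% of all genes), within the wild-type range for 24 (64.2%) and above it for 9 (15.5%). In 38 genes the hypomorph arrays stood in the order replicate 2, replicate 1, replicate 3 from high to low (15.6% of all genes), and in 19 all 3 were below the wild-type mean (21.7% of all genes). These counts by array were chosen after the values were seen. Over all probe sets hypomorph replicate 3 also had the lowest mean Pearson r with the other arrays, 0.9902, where the highest of the 7 was 0.9933. The weight that limma gives an array for its closeness to the fit was lowest for it as well, 0.69. That weight was 0.737 for wild-type replicate 1 and 0.74 for hypomorph replicate 2. Without hypomorph replicate 3 the median change was -0.14, with 37 genes negative (51.9% of all genes in that fit) and 2 lower at an unadjusted limma p under 0.05 (3.52%). Without hypomorph replicate 2 the median was -0.48, with 32 genes at that p (7.85% of all genes in that fit). The count was 4 without wild-type replicate 1 (2.53%), 7 without hypomorph replicate 1 (2.29%), 8 without wild-type replicate 2 (2.1%) and 9 without wild-type replicate 3 (2.89%), against 14 with all arrays. In bulk RNA, fewer cells of a type and less RNA per cell cannot be told apart.

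**Figure D2:**
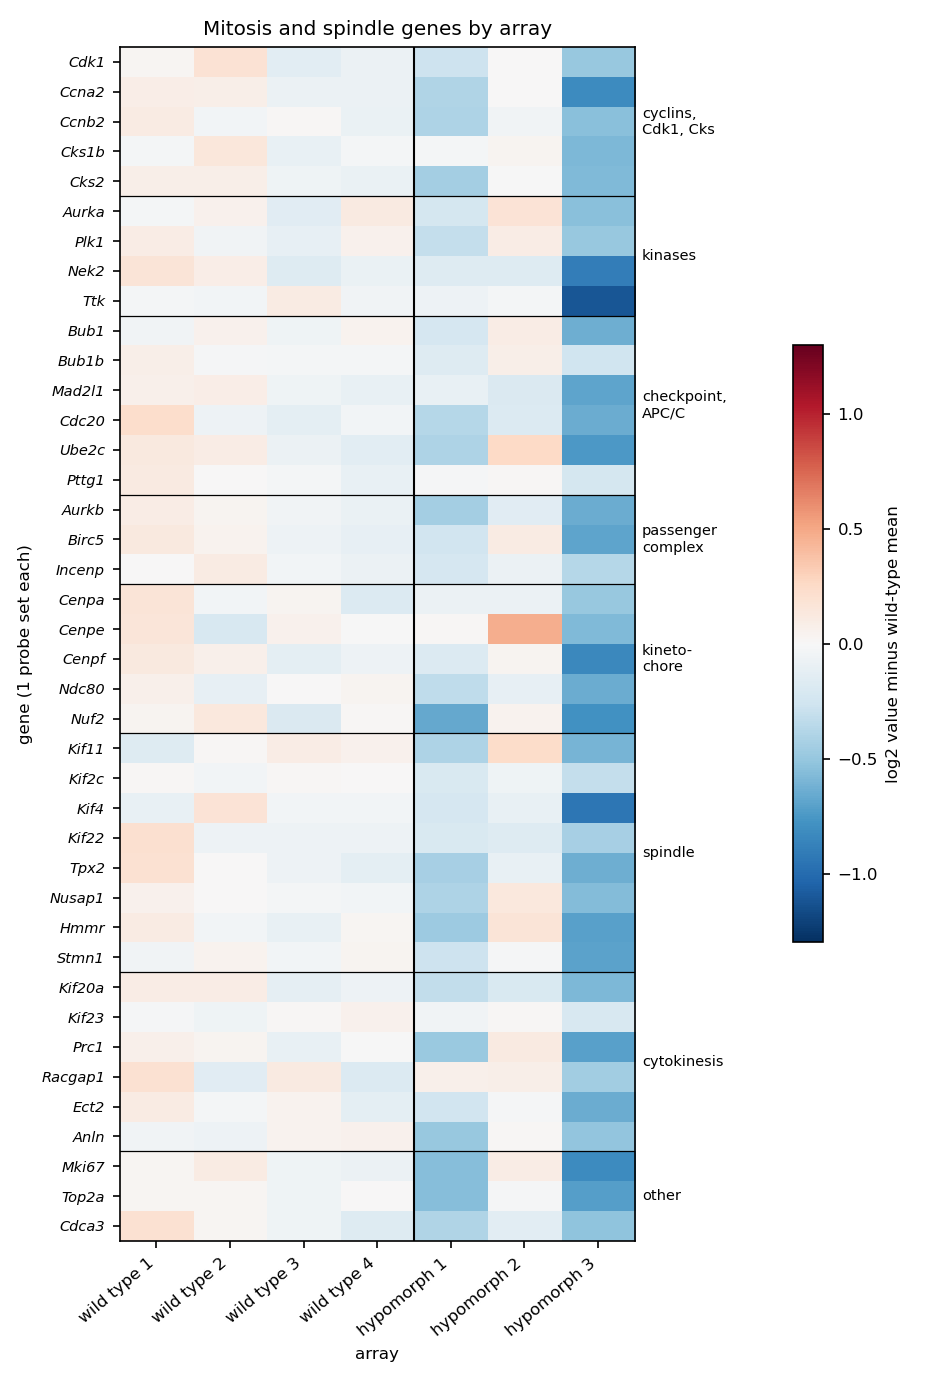
Heat map of the 40 genes (rows, grouped by role) over the 7 arrays (columns), coloured by the log2 value minus the wild-type mean of the gene. The columns of hypomorph replicates 1 and 3 are mostly blue, with medians of -0.27 and -0.62, whereas hypomorph replicate 2, with a median of 0.01, looks like the wild-type columns.

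Most promoters of these genes held an element that is known from mitosis genes as a class. The genes were listed for their part in mitosis, so its share describes the list and not the change between groups. Genes transcribed late in the cycle are known for the cell cycle homology region, a short site through which MuvB complexes repress them in resting cells and, with B-Myb and FoxM1, activate them before mitosis, and for nearby CCAAT boxes bound by NF-Y. Promoters (250 bases before to 50 after the start site, from RefSeq, GRCm38.p6) were found for 34 of the 40 genes, 36 promoters in all. The letters TTTGAA or TTCGAA, searched on both strands, stood in 28 of the 36 (77.8%) against 19.2% of all 32851 promoters of that length. Within 50 bases of the start site they stood in 26 (72.2%) against 5.31%. CCAAT, on either strand, stood in 28 of the 36 (77.8%) against 37.4%, at least 2 copies in 20 (55.6%) against 11.7%, and both elements in 25 (69.4%) against 7.52%. Letters of the E2F type (TTGGCGC or else TTCGCGC or else TTCCCGC, both strands), known from genes of the G1 to S transition, stood in 5 of the 36 (13.9%) against 8.07%. TTCGAA reads the same on both strands, and a CCAAT on the opposite strand can overlap the TTGG of an E2F-type match. Printed below are promoters of 6 genes. They had the smallest unadjusted limma p among genes that hold the element and are described array by array further on. Bases are in lower case, read 5′ to 3′ on the gene's strand. The cell cycle homology letters and CCAAT boxes of either strand are in capitals.
Cdc20 (chr4:118437294-118437593, minus strand): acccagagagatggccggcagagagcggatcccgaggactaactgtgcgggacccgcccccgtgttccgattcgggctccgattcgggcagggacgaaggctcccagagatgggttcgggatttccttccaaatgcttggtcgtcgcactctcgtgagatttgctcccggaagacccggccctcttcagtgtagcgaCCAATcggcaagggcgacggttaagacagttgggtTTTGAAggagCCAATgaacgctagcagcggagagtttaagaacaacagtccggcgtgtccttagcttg
Cdca3 (chr6:124829926-124830225, plus strand): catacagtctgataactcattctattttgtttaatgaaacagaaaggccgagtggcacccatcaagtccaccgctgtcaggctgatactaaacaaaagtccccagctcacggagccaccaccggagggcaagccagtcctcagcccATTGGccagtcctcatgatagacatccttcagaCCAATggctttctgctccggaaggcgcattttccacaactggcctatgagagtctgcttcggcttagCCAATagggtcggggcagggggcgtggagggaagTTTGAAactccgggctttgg
Ndc80 (chr17:71526808-71527107, minus strand): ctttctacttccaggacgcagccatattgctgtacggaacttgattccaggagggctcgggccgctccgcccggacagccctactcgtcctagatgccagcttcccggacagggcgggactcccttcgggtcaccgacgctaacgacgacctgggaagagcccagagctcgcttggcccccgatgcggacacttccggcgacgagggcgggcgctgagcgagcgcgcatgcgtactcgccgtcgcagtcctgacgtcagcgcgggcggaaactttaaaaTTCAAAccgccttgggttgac
Top2a (chr11:99024140-99024439, minus strand): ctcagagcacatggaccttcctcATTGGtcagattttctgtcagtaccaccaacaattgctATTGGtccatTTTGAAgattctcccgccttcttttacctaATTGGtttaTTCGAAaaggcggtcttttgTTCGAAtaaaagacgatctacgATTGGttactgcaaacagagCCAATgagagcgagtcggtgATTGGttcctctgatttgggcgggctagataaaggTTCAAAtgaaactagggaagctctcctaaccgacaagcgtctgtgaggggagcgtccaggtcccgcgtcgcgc
Ccnb2 (chr9:70421505-70421804, minus strand): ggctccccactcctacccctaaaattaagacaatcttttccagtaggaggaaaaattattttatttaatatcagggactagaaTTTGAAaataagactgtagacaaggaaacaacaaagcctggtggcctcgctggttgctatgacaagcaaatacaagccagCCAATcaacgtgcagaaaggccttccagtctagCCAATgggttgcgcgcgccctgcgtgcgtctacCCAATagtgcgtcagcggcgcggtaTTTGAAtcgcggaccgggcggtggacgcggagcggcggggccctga
Kif22 (chr7:127042371-127042670, minus strand): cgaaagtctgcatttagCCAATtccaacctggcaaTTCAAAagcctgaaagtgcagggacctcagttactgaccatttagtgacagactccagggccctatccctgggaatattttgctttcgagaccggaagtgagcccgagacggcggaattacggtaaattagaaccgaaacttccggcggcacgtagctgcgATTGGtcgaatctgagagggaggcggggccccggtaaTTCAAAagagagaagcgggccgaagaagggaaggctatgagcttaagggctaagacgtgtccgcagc

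In Cdc20 the TTTGAA began 18 bases before the start site and in Ccnb2 the nearer of its 2 copies began at base 5 after it, while Ndc80 held the element on the opposite strand at base 30 and had no CCAAT. Top2a had 4 cell cycle homology matches and 6 CCAAT boxes. Shorter windows of 30 bases show the element, again in capitals, in the other genes described array by array that hold it near the start site.
Anln (chr9:22389168-22389197, minus strand): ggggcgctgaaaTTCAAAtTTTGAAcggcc
Cdk1 (chr10:69352910-69352939, minus strand): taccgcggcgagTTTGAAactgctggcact
Kif4 (chrX:100626072-100626101, plus strand): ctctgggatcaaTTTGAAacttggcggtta
Plk1 (chr7:122159453-122159482, plus strand): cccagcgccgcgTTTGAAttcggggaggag

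Members with and without the element near the start site had nearly the same median change. For 24 genes that had it the median log2 change was -0.30, from -0.43 to -0.08, and for the 10 that had a promoter without it the median was -0.30, from -0.47 to -0.03. Kif2c and Mki67, counted without it, held the letters farther before the start site (at -103, and at -116 and -98). Genes for which no promoter was found are in neither set, and a role of the element in the change was not tested. Other lists of cell cycle genes held the same letters in other shares. Among 56 promoters of further G2 and mitosis genes the cell cycle homology letters stood in 53.6% (41.1% within 50 bases of the start site), CCAAT in 69.6% and E2F-type letters in 26.8% (17.9%). Among 29 promoters of condensin, cohesin and APC/C core genes the cell cycle homology letters stood in 31.0% (17.2%) and E2F-type letters in 34.5% (27.6%). Among 55 promoters of DNA replication genes they stood in 20% (7.27%) and 56.4% (45.5%). A match of letters is a description and not a bound site.

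**Figure D3:**
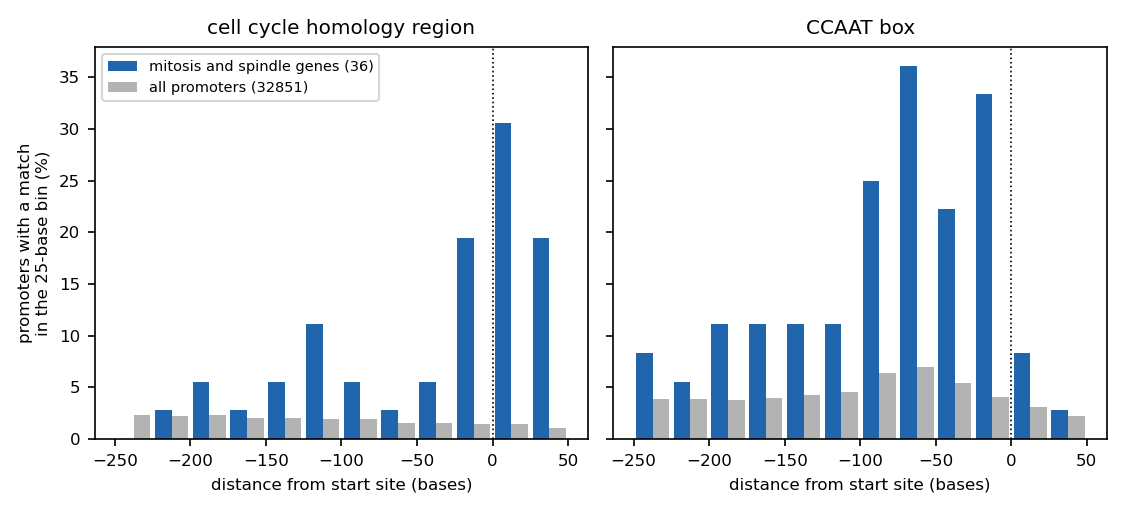
Share of promoters (%) with a match in each 25-base bin, by distance from the start site in bases, for the 36 promoters of the mitosis and spindle genes (blue) and all 32851 promoters (grey). In the left panel the blue bars reach 30.6% in the bin just after the start site, where the grey bar is at 1.43%, and in the right panel the CCAAT bars reach 36.1% between 75 and 50 bases before it, against 6.99%.

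Cdk1, its cyclins and its Cks partners make up the engine of mitotic entry, and all 5 measured genes of this group had a lower mean in the hypomorph. Ccnb2, a B-type cyclin that binds Cdk1, read 10.27, 10.13, 10.17 and 10.07 in wild-type replicates 1 to 4 and 9.76, 10.12 and 9.62 in hypomorph replicates 1 to 3, on the log2 scale used for all values here. Its log2 change was -0.33 (95% confidence interval -0.61 to -0.05). Hypomorph replicate 2 stood inside the wild-type range and the other hypomorph arrays below it. Cks2, a small adaptor of Cdk1, read 10.92, 10.92, 10.79 and 10.76 against 10.41, 10.84 and 10.27, a change of -0.34 (-0.65 to -0.02), with the same arrays apart. For Cdk1 itself the values were 9.46, 9.62, 9.30 and 9.36 in the wild-type arrays and 9.16, 9.44 and 8.94 in the hypomorph arrays, a change of -0.25 (-0.56 to 0.05). Ccna2, the cyclin of S phase and early mitosis, had a change of -0.40. Its profile over the arrays was nearest to that of the other mitosis genes, with a Pearson r of 0.998 with their median over the 7 arrays. The other Cks gene, Cks1b, had a change of -0.19, which was 0.0039 without hypomorph replicate 3.

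The mitotic kinases Aurka, Plk1, Nek2 and Ttk were lower in the mean but overlapped between groups. Nek2, a kinase that splits the centrosomes, read 6.70, 6.61, 6.36 and 6.44 in the wild-type arrays and 6.36, 6.36 and 5.63 in the hypomorph arrays, a change of -0.41 (-0.85 to 0.03). Plk1, which acts from centrosome maturation to cytokinesis, read 7.53, 7.38, 7.32 and 7.48 against 7.12, 7.52 and 6.94, a change of -0.24 (-0.55 to 0.08). In both genes hypomorph replicate 3 was lowest, while replicate 2 equalled a wild-type array for Nek2 and stood near the top of the wild-type range for Plk1. Aurka, the kinase of the spindle poles, had a change of -0.20. Ttk, the kinase that starts the spindle checkpoint, had a change of -0.40 with the largest standard error of the 40 genes, 0.249. Hypomorph replicate 3 read 5.87 for Ttk, and replicates 1 and 2 read 6.92 and 6.96.

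The spindle checkpoint and the APC/C stand on opposite sides of the same switch, and genes of both sides had negative changes. Cdc20, the activator of the APC/C that the checkpoint captures, read 10.38, 10.09, 10.03 and 10.12 in the wild-type arrays and 9.78, 9.98 and 9.51 in the hypomorph arrays. Every hypomorph array lay below every wild-type array, the change was -0.40 (-0.70 to -0.09), and the exact two-sided permutation p over the 35 splits of the arrays was 0.0286, the smallest they can give. Mad2l1, the checkpoint protein that binds Cdc20, read 10.06, 10.08, 9.93 and 9.90 against 9.90, 9.80 and 9.31, a change of -0.32 (-0.65 to 0.01). Its hypomorph arrays 1 and 2 were close together and replicate 3 lay apart. The kinases Bub1 and Bub1b, which signal from unattached kinetochores, had changes of -0.25 and -0.12. Ube2c, the ubiquitin-conjugating enzyme of the APC/C, spread most widely after Ttk and Cenpe among the hypomorph arrays, from 9.91 to 10.92, with a change of -0.30. The securin gene Pttg1, whose product holds back separase, had a change of -0.08, with 11.41, 11.44 and 11.20 in the hypomorph and a wild-type range of 11.34 to 11.55.

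Aurkb had the smallest p of the 40 genes. It encodes the kinase of the chromosomal passenger complex, which corrects faulty attachments and later acts at the midzone. Its values were 8.18, 8.11, 8.03 and 7.99 in the wild-type arrays and 7.63, 7.93 and 7.43 in the hypomorph arrays, without overlap, a change of -0.41 (-0.69 to -0.13) or 1.33-fold lower (unadjusted limma p = 0.00966, adjusted p = 0.644, exact permutation p = 0.0286). Incenp, the scaffold of the complex, read 10.07, 10.16, 10.03 and 9.98 against 9.84, 9.98 and 9.69, a change of -0.22 (-0.42 to -0.02), so that hypomorph replicate 2 lay just above the lowest wild-type array. Birc5 (survivin), which carries the complex to the centromere, had a change of -0.28 with hypomorph replicate 2 near the top of the wild-type range.

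Among the kinetochore genes the changes differed most. Nuf2, a subunit of the Ndc80 complex that grips the microtubule, read 8.28, 8.38, 8.06 and 8.26 in the wild-type arrays and 7.58, 8.29 and 7.46 in the hypomorph arrays, a change of -0.47 (-0.92 to -0.02), the largest of the 40. Its partner Ndc80 read 7.64, 7.47, 7.58 and 7.61 against 7.24, 7.47 and 6.93, a change of -0.36 (-0.65 to -0.07). In both, replicates 1 and 3 of the hypomorph were below the wild type and replicate 2 was among it. Cenpe, a kinesin that carries chromosomes to the spindle equator, had the smallest change, -0.03 (-0.55 to 0.50): its hypomorph arrays read 7.86, 8.31 and 7.27, within, above and below a wild-type range of 7.63 to 8.00. The sign turned to 0.24 without hypomorph replicate 3 and to 0.03 without wild-type replicate 1. Cenpa, the histone variant that marks the centromere, had a change of -0.22, and Cenpf, a large kinetochore protein of late G2 and mitosis, -0.33.

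The spindle motors and microtubule proteins held 3 of the 6 genes without overlap. Kif22, a chromosome-arm kinesin, read 10.08, 9.80, 9.80 and 9.81 in the wild-type arrays and 9.67, 9.71 and 9.44 in the hypomorph arrays, a change of -0.27 (-0.50 to -0.03). Kif2c, a kinesin that depolymerizes microtubules at the centromere, read 7.44, 7.39, 7.43 and 7.43 against 7.22, 7.37 and 7.11, a change of -0.19 (-0.36 to -0.01). Kif4, a chromokinesin, read 7.49, 7.76, 7.55 and 7.55 against 7.37, 7.48 and 6.65, a change of -0.42 (-0.87 to 0.03). The gap between the groups was narrow for Kif4 and Kif2c, where hypomorph replicate 2 lay just under the lowest wild-type array. Tpx2, which brings Aurka to the spindle, read 8.63, 8.44, 8.36 and 8.30 against 8.00, 8.33 and 7.80, a change of -0.39 (-0.71 to -0.07), with hypomorph replicate 2 inside the wild-type range. The remaining genes of this group, Kif11 (the motor that pushes the poles apart), Nusap1 and Hmmr (microtubule binders of the spindle) and Stmn1 (stathmin, a tubulin-binding protein), had changes of -0.26, -0.28, -0.34 and -0.33. In Kif11, Nusap1 and Hmmr hypomorph replicate 2 was above all wild-type arrays.

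Genes of the spindle midzone and of cytokinesis, which splits the cell, differed in size of change between Kif23 and Racgap1 and the other 4. Kif20a, the kinesin that moves the passenger complex to the midzone, read 8.24, 8.24, 8.02 and 8.08 in the wild-type arrays and 7.82, 7.95 and 7.56 in the hypomorph arrays, without overlap, a change of -0.37 (-0.62 to -0.12; exact permutation p = 0.0286). Anln, an actin binder of the cleavage furrow, read 8.28, 8.26, 8.37 and 8.38 against 7.83, 8.34 and 7.81, a change of -0.33 (-0.64 to -0.02). Prc1, which bundles midzone microtubules, and Ect2, which activates RhoA at the furrow, had changes of -0.36 and -0.30. Kif23 and Racgap1, whose products form the centralspindlin complex, had -0.08 (-0.25 to 0.10) and -0.10 (-0.47 to 0.27), and Racgap1 turned to 0.07 without hypomorph replicate 3.

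The last group holds widely used markers of dividing cells. Mki67, which coats mitotic chromosomes, read 11.42, 11.50, 11.34 and 11.32 in the wild-type arrays and 10.84, 11.49 and 10.58 in the hypomorph arrays, a change of -0.42 (-0.88 to 0.03). Top2a, the topoisomerase that untangles chromatids, read 10.59, 10.59, 10.51 and 10.57 against 10.01, 10.54 and 9.85, a change of -0.43 (-0.79 to -0.07). For Top2a the wild-type mean was 10.56 ± 0.0383 (SD, n = 4) and the hypomorph mean 10.13 ± 0.365 (SD, n = 3). Cdca3, which promotes entry into mitosis, read 10.16, 9.99, 9.91 and 9.80 against 9.57, 9.83 and 9.44, a change of -0.35 (-0.63 to -0.08). Once more only hypomorph replicate 2 lay within the wild-type range in these genes.

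On the probe sets used, the 6 genes without overlap were therefore Cdc20, Aurkb, Kif22, Kif2c, Kif4 and Kif20a, each with an exact permutation p of 0.0286. The genes also followed each other from array to array. Over the 7 arrays the median Pearson r of the 780 pairs of genes was 0.873, the lowest 0.417 (Nuf2 and Racgap1) and the highest 0.992 (Nusap1 and Prc1). Pairs share the same RNA and arrays, so these values are a description. With the median of the other mitosis genes, r was lowest for Racgap1 (0.710) and Cenpe (0.737).

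Several genes had further probe sets, which allowed a look at the same transcripts through other probes. For 21 genes there were 32 such probe sets, and 28 of them had a negative change, with a median of -0.21. At an unadjusted limma p under 0.05 were 4 of the 32 in the lower direction (3.34% of all probe sets) and 0 in the higher (4.35%). The 4 with a positive change (of Incenp, Kif23, Nusap1 and Top2a, up to 0.17) all had a mean level under that of the median probe set, 5.51. Kif11 differed most between its probe sets, at -0.26, -0.38 and -1.24. Of the genes without overlap on the probe set used, Aurkb overlapped between groups on its other probe set (-0.29). Cdc20 overlapped on its others (-0.20 and -0.24), and so did Kif2c (-0.23, -0.01 and -0.003). Kif22 stayed without overlap on a further probe set at -0.35 and overlapped on another at -0.32. Kif4 and Kif20a had no further probe set.

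**Figure D4:**
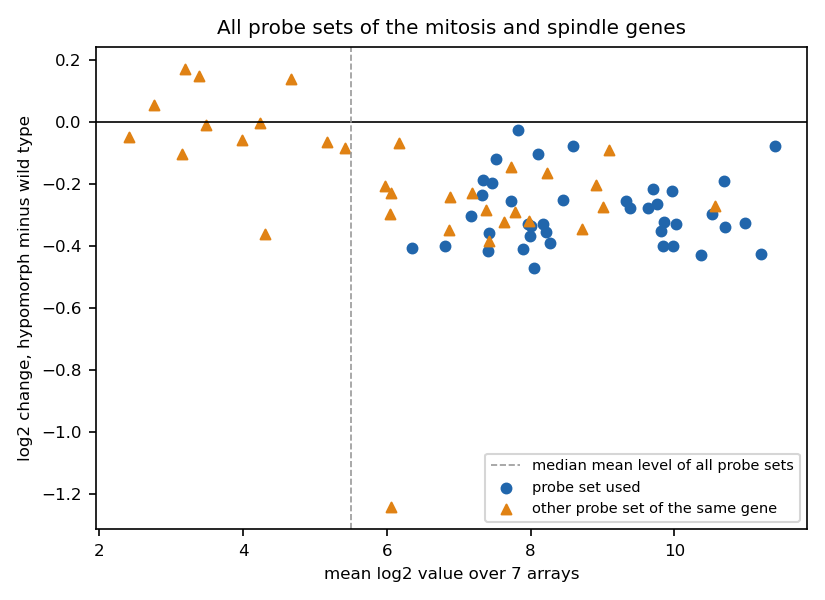
Log2 change (hypomorph minus wild type) against the mean log2 value over the 7 arrays for all 72 probe sets of the 40 genes, with circles for the probe set used and triangles for the others. The 4 triangles above 0 lie left of the dashed line at 5.51, the median level of all probe sets, and the lowest triangle, at -1.24, belongs to Kif11.

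In 4 further lists of cell cycle genes the hypomorph medians were lowest in replicate 3 and highest in replicate 2. For comparison, 50.8% of all genes had a negative change, and 3.59% were lower and 3.57% higher at an unadjusted limma p under 0.05. Of 41 measured further genes of G2 and mitosis, 39 were negative with a median of -0.29, and 10 had an unadjusted limma p under 0.05, all lower. Tacc3 (a spindle pole protein), Cdca5 (sororin, which protects cohesion) and Melk (a kinase of dividing cells) had the smallest p, with changes of -0.33, -0.40 and -0.39. Of 48 DNA replication genes, 47 were negative with a median of -0.35, and 18 had that p, led by Rfc1, Cdc45 and Pola1 at -0.32, -0.37 and -0.73. Their medians in hypomorph replicates 1 to 3 were -0.37, -0.02 and -0.68, near those of the mitosis genes. Condensin, cohesin and APC/C core genes had a smaller median of -0.14, with 24 of 27 negative and 4 at that p, led by Rad21 (-0.31), Ncaph (-0.37) and Ncapd2 (-0.37). The list of G1 and S cyclins and E2F factors, which also holds Rb1, Rbl1 and Rbl2 (-0.30, -0.15 and 0.11), had a median of -0.15. In it 19 of 23 were negative and 7 at that p, led by Tfdp1 (-0.34), E2f8 (-0.47) and Cdc25a (-0.33). None passed the adjusted threshold.

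The genes listed as inhibitors of the cycle did not share the direction. Of 15 measured, 8 were negative (50.8% of all genes) and 7 positive, with a median of -0.01. Their medians in hypomorph replicates 1 to 3 were 0.04, 0.04 and 0.04. At an unadjusted limma p under 0.05 were 5 in the higher direction (3.57% of all genes) and 1 in the lower (3.59%). The groups overlapped for all 15, with 0 apart in either direction. Over all genes 301 of 12393 were apart in the higher direction and 337 in the lower. Gadd45b, a stress-response gene, read 8.79, 8.64, 8.46 and 8.29 in the wild-type arrays and 9.31, 8.78 and 8.90 in the hypomorph arrays, a change of 0.46. Btg2, an antiproliferative gene, also had 0.46, and Cdkn2d, an inhibitor of Cdk4 and Cdk6, had -0.33. The others at that p were Cdkn1b (p27, 0.40), Cdkn1a (p21, 0.45) and Btg1 (0.31), named after their values were seen. All had an adjusted p of 0.644.

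Markers of other cells were read beside these genes because a magnetic CD11c sort can keep other cell types. Itgax, which encodes CD11c, read 7.98 to 8.33 in wild type and 7.98 to 8.48 in the hypomorph, and 12 of 16 dendritic cell markers were above the median probe set, with Zbtb46 (4.70 to 5.75) around it. Array medians over all probe sets lay between 5.46 and 5.53. The median mean level of the dendritic cell markers was 6.40. Markers of some other cells read higher: 12.46 for mature neutrophil (9 of 9 above the median probe set), 11.39 for red pulp macrophage (10 of 10) and 9.63 for cytotoxic and NK cell markers (7 of 8). Others read lower, with 4.03 for B cell markers (2 of 7) and 4.43 for stroma and endothelium (2 of 7). Of 16 marker lists, 5 had hypomorph medians in the order of the mitosis genes (replicate 2, then 1, then 3): erythroid precursor, haematopoietic progenitor, basophil and mast cell, T cell, and cytotoxic lymphocyte and NK cell.

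The erythroid list spanned the widest range of these 5. Its median was 0.05, 0.46, -0.30 and -0.19 in wild-type replicates 1 to 4 and -0.73, 0.45 and -1.89 in hypomorph replicates 1 to 3, with 21 of 23 measured markers negative and 0 at an unadjusted limma p under 0.05. Car2, a carbonic anhydrase of red cells, read 11.86, 12.33, 11.54 and 11.66 in the wild-type arrays and 11.25, 12.13 and 10.18 in the hypomorph arrays. Summed over the list on the linear scale, the signal was 10943 to 18395 in the wild-type arrays and 8692, 16997 and 4236 in the hypomorph arrays, and no array value is 0. The same sum over the mitosis genes was 29094 to 31911 in the wild-type arrays and 24876, 30575 and 20248 in the hypomorph arrays. Within the wild type the erythroid median spanned -0.30 to 0.46 while that of the mitosis genes spanned -0.05 to 0.07. Its part in the lower mitosis values was not tested.

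The other 4 lists in that order covered narrower ranges. Haematopoietic progenitor genes had medians of -0.11, -0.10 and -0.34 in hypomorph replicates 1 to 3, with 5 of 6 measured genes negative and a summed signal of 1031 to 1131 in the wild-type and 766 to 1005 in the hypomorph arrays. Among them Myb, a factor of immature blood cells, had a change of -0.33 without overlap and Kit, the stem cell factor receptor, -0.63. Basophil and mast cell genes, Kit again among them, had -0.53, -0.47 and -1.20, with 6 of 7 negative and sums of 621 to 1403 and 366 to 471. T cell markers had 0.06, 0.21 and -0.06 with 1 of 7 negative, and cytotoxic and NK cell markers -0.13, 0.11 and -0.18 with 5 of 8 negative. At an unadjusted limma p under 0.05 were 5 of the 7 basophil and mast cell genes and 2 of the 6 progenitor genes. All were lower (3.59% of all genes), and the T cell and cytotoxic lists held 0. Groups did not overlap for 3 of the 7 basophil and mast cell genes (2.72% of all genes).

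Further lists stood in other orders. Granulocyte precursor genes had -0.49, -0.90 and -0.23 with 5 of 5 negative, lowest in hypomorph replicate 2. Of these 5 genes, 3 were lower at an unadjusted limma p under 0.05 (3.59% of all genes). Mature neutrophil genes had -1.18, -0.53 and 0.12, monocyte genes -0.55, -0.18 and 0.11, B cell markers -0.42, -0.23 and -0.08, and pancreatic acinar genes -2.66, -2.63 and -0.73, with a wild-type spread of the acinar median from -1.94 to 1.74. Medians above the wild-type mean in each hypomorph array were seen for red pulp macrophage genes (0.42, 0.16 and 0.29, with 10 of 10 positive), plasma cell genes (0.23, 0.23 and 0.51, 6 of 6), stroma and endothelium genes (0.41, 0.06 and 0.41, 6 of 7) and dendritic cell markers (0.08, 0.05 and 0.07, 11 of 16). The wild-type medians of the red pulp macrophage list ran from -0.52 to 0.46. The part of these cells in the result was not tested.

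**Figure D5:**
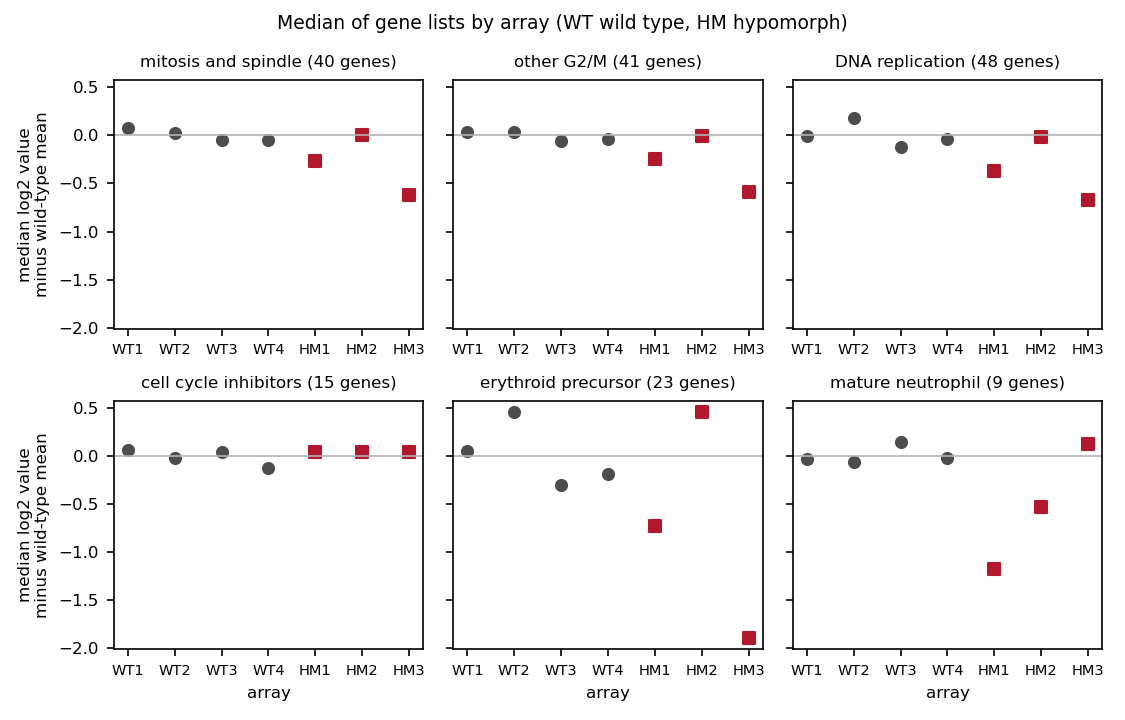
Median log2 value minus the wild-type mean (vertical axis, same scale in all panels) of 6 gene lists in each array, with grey circles for wild type (WT1 to WT4) and red squares for the hypomorph (HM1 to HM3). The mitosis, other G2/M and DNA replication panels show HM3 lowest and HM2 near 0, the erythroid panel has the same order over a wider range down to -1.89, and the neutrophil panel has HM1 lowest at -1.18.

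Among 2305 other genes above the median level with an SD of at least 0.2 over the arrays, the 10 whose values followed the median of the mitosis genes most closely had a Pearson r of 0.981 to 0.996 over the 7 arrays. They were Smc3 (a cohesin subunit), Bcl2l13, Dsn1 (a kinetochore protein), Rnf128, Rpa1 (a replication protein), Trim59, Atp1b2, Orc5 (an origin recognition subunit), Haspin (a mitotic histone kinase) and Aspm (a spindle pole protein). Smc3 read 8.12, 8.11, 8.02 and 8.02 in the wild-type arrays and 7.88, 8.07 and 7.55 in the hypomorph arrays, a change of -0.23. The largest changes among them were those of Atp1b2 and Rnf128, -0.75 and -0.73. These genes were picked for their likeness, so r is a description, and all had an adjusted limma p of at least 0.644.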

How the data were processed

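The deposited table holds 1 value per probe set and array on a log2 scale. The submitters' processing notes name Affymetrix Power Tools. How probes were summarized, how arrays were normalized and which version was run are left unsaid in the sources used here. The deposited log2 values have nearly equal quartiles, with 4.74% to 7.07% identical values in a pair of arrays. A quantity of 100 ng of total RNA was labelled for each array, per the labels' protocols.

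Of 22690 probe sets, 64 controls and 1 without values were left out. Gene names came from the array's annotation, updated by Entrez identifier (20350 of 20379 probe sets that name 1 gene, with 691 naming several and 1555 none) in RefSeq genes of GRCm38.p6. No coordinates are tied to probe sets, since the array files name no build. The values were used as deposited in limma 3.58.1 (R 4.3.3; lmFit and eBayes, group means, no block) over all probe sets. Precision is limited by having 7 arrays. The fit was tested on simulated data. All members were named, and array values were given for Mki67, Top2a, Cdk1, the 2 members with the smallest p of each role and those without overlap. In other pathway lists the 3 with the smallest p were named, and in the marker lists described a few. The members and lists were chosen with earlier results of these data known.

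Replicate numbers were not used as pairs. Deviations from the group means of arrays with the same number correlated at 0.102, 0.0977 and 0.339, not all over 0.1, and no label pairs them.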

Additional observations from a re-analysis of the deposited data

Results flagged for a closer look

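In the wild-type group of 4 arrays, 3 of the 40 genes had an array set apart from the others, with a gap to its neighbour that made up 0.982 (Kif22), 0.923 (Bub1b) and 0.895 (Ttk) of the range of the group. All 3 are past Dixon's 95% limit for 4 samples, which chance alone passes in about 1 in 20 groups. The array apart was wild-type replicate 1 for Kif22 (10.08, the others 9.80 to 9.81) and Bub1b (7.64, the others 7.54 to 7.55) and wild-type replicate 3 for Ttk (7.09, the others 6.94 to 6.96), in each case the highest.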

How the results depend on the processing

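Across 16 alternatives, 0 of 640 changes of single genes passed the adjusted threshold (lowest adjusted p 0.11) and 4 turned sign, all with an array left out. With arrays left out in turn, Cenpe ran from -0.28 to 0.24 (0.03 without wild-type replicate 1), Cks1b from -0.30 to 0.0039 and Racgap1 from -0.19 to 0.071 (without hypomorph replicate 3). The number of genes lower at an unadjusted limma p under 0.05 ran from 2 to 32, the number without overlap from 6 to 32, the number with a negative change from 37 to 40 and the median change from -0.48 to -0.14. The 6 genes without overlap were 12 without wild-type replicate 4. Centring, quantile normalization, trend and robust settings, array weights, 32 added on the linear scale, a filter on low probe sets and other choices of probe set left 40 of 40 genes negative, with medians from -0.33 to -0.29, 12 to 17 genes at the unadjusted p and 4 to 7 without overlap. The share of all genes at these rules was not taken under these settings, so these counts have no baseline. With the replicate number as a block, where arrays share only a number, the median was -0.33. In the block fit 16 genes had an unadjusted limma p under 0.05, again without a share of all genes. In that fit 2 residual degrees of freedom remain. The cause of these shifts was not tested, and leaving out an array changes by construction how easily groups overlap.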
